A study of Homo sapiens with 31 samples.

Results

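The genes described here encode the classical axon guidance ligands and receptors: ephrins and Eph receptors, semaphorins with their plexin and neuropilin receptors, netrins with their receptors, and slits with their robo receptors. They were chosen by gene symbol, and 70 of the 17113 protein-coding genes in the count table matched. These were 8 ephrins, 14 Eph receptors, 20 semaphorins, 11 plexins and neuropilins, 10 netrins and netrin receptors and 7 slits and robos. Levels are CPM, a gene's counts scaled to a common library total. In the unmixed lines 61 members had enough counts to be tested, and 43 had a mean of at least 10 CPM in at least 1 line. The other 9 members, DCC, EPHA3, EPHA6, EPHA7, EPHA8, NTN3, NTN5, SLIT1 and UNC5D, were too low to test, and the highest mean of any of them in any line was 0.257 CPM.

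The series measured total RNA of 4 untreated human colorectal adenocarcinoma lines, LoVo, LS1034 (labelled as from the cecum), HT-29 and HCT116, and of the normal colon line CCD841CoN, with 3 unmixed libraries per line. RNA of each cancer line was also mixed with CCD841CoN RNA, which made up the rest, at 0.1, 1, 10 and 50%, with 1 library per line and percentage. Whether the 3 libraries per line are separate cultures is not labelled, so p-values measure the spread between libraries, which may be technical. Each line is 1 cell line, and CCD841CoN is the only normal one. The stated purpose was to try out a deconvolution method on mixtures whose cancer share was known.

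Eph receptors are receptor tyrosine kinases that signal on cell contact with ephrins on a neighbouring cell, A-type ephrins being anchored by a lipid and B-type ephrins spanning the membrane. In the intestinal crypt, EPHB2 and EPHB3 are known targets of Wnt signalling, and their contact with B-type ephrins helps to keep stem and differentiated cells apart. Semaphorins signal through plexins, the secreted class 3 members mostly with a neuropilin as co-receptor. Slits bind robos. Netrins bind DCC, neogenin (NEO1) and the UNC5 receptors, several of which are known as dependence receptors that can trigger cell death when no ligand is bound, and DCC was first described as a gene lost in colorectal cancer.

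The 31 libraries held 9688765 to 56741879 counts. All 11 epithelial markers looked at were at 10 CPM or more in at least 1 cancer line, with a summed level of 3526 to 25131 CPM in the 12 cancer libraries against 240 to 315 CPM in CCD841CoN, where ESRP1, VIL1 and CDH17 had no count. The 11 fibroblast markers summed to 28.7 to 557 CPM in the cancer libraries and 25617 to 30098 CPM in CCD841CoN, where all 11 were at 10 CPM or more. CCD841CoN thus carried the markers of fibroblasts and few of those of colon epithelium, and being a cancer line cannot be told apart from being of another cell type in any comparison with it. The 6 measured endothelial markers summed to 0.244 to 4.64 CPM in the cancer libraries and 184 to 239 CPM in CCD841CoN. There only 1 of the 6 was at 10 CPM or more, and KDR and ERG had no count. The 6 measured neuronal markers summed to 0.244 to 129.8 CPM in the cancer libraries and to 9.62 to 13.1 CPM in CCD841CoN. Their sum was highest in HCT116 (47.1 to 129.8 CPM). Only 1 of these 6 was at 10 CPM or more in HCT116, 1 in LS1034 and none in the other lines. The 5 glial markers summed to at most 1.21 CPM in any library. The part of these differences in the results below was not tested.

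Set against CCD841CoN, the guidance genes split in both directions. Of the 61 tested members, 42 were called in the mean of the 4 cancer lines (edgeR quasi-likelihood test, Benjamini-Hochberg adjusted p under 0.05 over all genes tested, and a log2 change of 1 or more in size), 18 higher and 24 lower. Of all genes tested, 47.1% were called in that comparison, 24.8% higher and 22.3% lower. This mean contrast averages the log2 changes of the 4 lines, so a call in it need not be shared by all of them. PLXND1 was called lower in it but as a single line only in LS1034, and EPHA4 only in HT-29. The median log2 fold change of the members was 0.09, against 0.22 over all genes tested, and it did not change when the 6 members with no count in CCD841CoN were set to their lowest possible fold. Line by line, LoVo had 35 members called (17 higher and 18 lower, 48.0% of all genes being called), LS1034 43 (21 and 22, 47.1%), HT-29 47 (25 and 22, 45.7%) and HCT116 34 (14 and 20, 46.7%). These 4 comparisons share the CCD841CoN libraries. Fold changes were scaled by the trimmed mean of M values, which lowers them by 0.37 on the log2 scale in the mean contrast relative to plain CPM. The fold beside a mean contrast is also a ratio of mean CPM over all cancer libraries and not an average of log2 changes. For both reasons a ratio of CPM values can exceed the fitted change beside it.

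A set of 11 members was higher in every cancer line: EFNA1, EFNA2, EFNA3, EFNB2, EPHA1, EPHA10, EPHB6, SEMA3G, SEMA4B, SEMA4G and SEMA6B. Another 9 were lower in every cancer line: EPHA5, NEO1, NTN4, ROBO1, SEMA3A, SEMA5A, SEMA6D, SLIT3 and UNC5C. Members called in opposite directions in different lines numbered 6, EFNA5, EPHB1, PLXNA2, SEMA3B, SEMA4D and UNC5B, and 4 were called in no line, EPHA2, PLXNA4, SEMA5B and SEMA7A. The set higher in every line holds 4 ephrins, 3 Eph receptors and 4 semaphorins, with no plexin, neuropilin, netrin, netrin receptor, slit or robo. How many of all genes tested show each of these patterns was not counted. The single-line comparisons share the CCD841CoN libraries, so these counts and the families in them are a description only. Membership of these sets follows single-line calls, and those of SLIT3, of SEMA6B in HT-29 and LS1034, of SEMA3A in LS1034, of SEMA3B in LS1034 and HT-29, of SEMA4D in LS1034 and of EPHB1 in LoVo and HT-29 did not hold under every alternative tried, as given with each gene below.

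**Figure D1:**
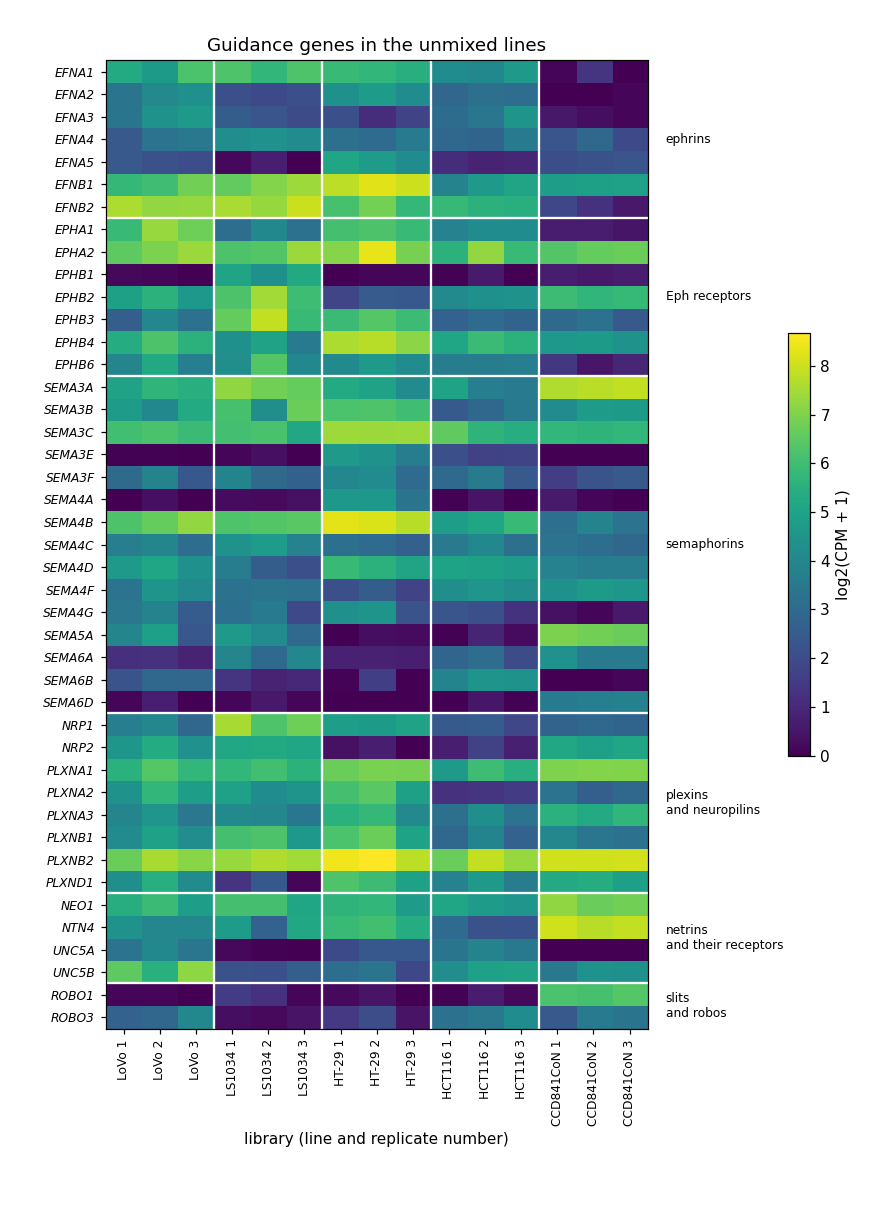
Levels of the 43 members with a mean of at least 10 CPM in a line, as log2(CPM + 1), in rows grouped by family, and the 15 unmixed libraries in columns with the cancer lines left of CCD841CoN. EFNB2 and SEMA4B are brighter in the 12 cancer libraries than in CCD841CoN, ROBO1 shows the opposite, and EPHB1, SEMA4A and NRP1 are brightest in 1 cancer line.

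Promoter windows of the RefSeq annotation (build GRCh38.p14, 250 bases before to 50 after a start site, 60 members matched, 92 windows) were searched on both strands for the E-box word CACCTG, known from SNAI and ZEB repressors, and for the TCF/LEF word CTTTGAT with its variants ending otherwise, CTTTGTT or else CTTTGAA. The E-box word reads CAGGTG when it lies on the other strand, and CTTTGTT then reads AACAAAG. None of these words overlap in the windows shown. An E-box was found in 17 of 92 member windows and in 20.6% of all 35116 windows, a TCF/LEF word in 9 of 92 and in 11.5% of all. Windows of 4 members with large differences between lines are shown, each of them a window with a match, with the matched letters in capitals. Of these members EPHA1 and EFNB2 were higher in all cancer lines, ROBO1 was near absent from them, and SEMA3E was found in HT-29 and HCT116. The windows read 5′ to 3′ on the strand of the gene. A match is a run of letters and not a bound site, and ROBO1 and SEMA3E have another window each without a match.
EPHA1, chr7:143408807-143409106 (minus strand): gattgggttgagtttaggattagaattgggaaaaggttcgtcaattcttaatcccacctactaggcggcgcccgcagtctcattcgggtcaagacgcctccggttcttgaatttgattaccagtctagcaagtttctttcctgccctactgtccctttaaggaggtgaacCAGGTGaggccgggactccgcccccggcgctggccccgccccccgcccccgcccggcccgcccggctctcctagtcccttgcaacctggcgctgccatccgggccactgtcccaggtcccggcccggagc
EFNB2, chr13:106535613-106535912 (minus strand): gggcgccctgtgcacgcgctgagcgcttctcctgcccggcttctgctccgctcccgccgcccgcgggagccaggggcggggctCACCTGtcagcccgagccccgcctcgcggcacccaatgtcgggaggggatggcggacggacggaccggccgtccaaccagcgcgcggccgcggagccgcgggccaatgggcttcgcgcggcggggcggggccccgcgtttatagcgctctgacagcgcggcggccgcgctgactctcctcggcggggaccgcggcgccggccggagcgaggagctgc
ROBO1, chr3:79019410-79019709 (minus strand): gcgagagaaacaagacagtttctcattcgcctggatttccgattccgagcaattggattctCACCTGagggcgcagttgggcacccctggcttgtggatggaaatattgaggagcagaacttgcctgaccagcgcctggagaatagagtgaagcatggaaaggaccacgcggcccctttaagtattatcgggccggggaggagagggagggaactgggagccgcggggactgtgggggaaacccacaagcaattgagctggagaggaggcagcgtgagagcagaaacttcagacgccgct
SEMA3E, chr7:83641382-83641681 (minus strand): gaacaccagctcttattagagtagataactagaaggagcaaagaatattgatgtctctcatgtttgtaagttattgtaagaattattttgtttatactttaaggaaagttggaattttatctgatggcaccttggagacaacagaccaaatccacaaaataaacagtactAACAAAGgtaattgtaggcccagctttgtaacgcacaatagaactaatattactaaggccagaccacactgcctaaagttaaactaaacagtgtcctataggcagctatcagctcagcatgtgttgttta
The E-box word begins 80 bases before the start site in EPHA1, 167 in EFNB2 and 189 in ROBO1, and the TCF/LEF word 80 bases before it in SEMA3E. The E-box word stands in windows of members that were higher and of a member that was lower in the cancer lines.

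Of the 8 ephrins, the ligands of Eph receptors, 5 were called higher in the mean contrast (EFNA1, EFNA2, EFNA3, EFNB1 and EFNB2) and 1 lower (EFNB3), beside 24.8% and 22.3% of all genes tested. EFNB2, a B-type ephrin known from arterial endothelium and intestinal epithelium, whose promoter window with an E-box word is printed above, stood at 194, 153 and 155 CPM in LoVo, 187, 157 and 250.2 CPM in LS1034, 69.4, 115 and 53.7 CPM in HT-29 and 54.3, 45.96 and 42.98 CPM in HCT116, against 2.64, 1.37 and 0.516 CPM in CCD841CoN. All 12 cancer libraries lay above the 3 CCD841CoN libraries, and the LS1034 and LoVo libraries lay above those of HT-29 and HCT116. The log2 fold change was 5.73 ± 0.45 (edgeR quasi-likelihood, adjusted p = 1.6e-08), and the means differed 81.6-fold. LS1034 exceeded HT-29 (1.32 ± 0.38, adjusted p = 0.0171) and HCT116 (2.10 ± 0.39, adjusted p = 0.000504), the call over HT-29 ending without LS1034 replicate 3 or HT-29 replicate 1 or 3 (adjusted p 0.056 to 0.0763). In an annotation of a later build, 26.01% of the exon bases of EFNB2 overlap a gene on the opposite strand, and whether counting used strand is not given.

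EFNA1, a lipid-anchored ligand known to be induced by inflammatory cytokines, stood at 38.1, 25.1 and 73.9 CPM in LoVo, 77.3, 52.6 and 76.7 CPM in LS1034, 58.3, 52.8 and 41.9 CPM in HT-29 and 17.7, 15.6 and 24.1 CPM in HCT116, against 0.0812, 1.54 and 0 CPM in CCD841CoN. No cancer library overlapped a CCD841CoN library, although CCD841CoN replicate 2 held nearly all of that line's 20 counts. The mean log2 fold change was 6.11 ± 0.77 (edgeR, adjusted p = 4.01e-06). EFNA2 averaged 14.8 ± 5.26 CPM in LoVo, 3.15 ± 0.275 CPM in LS1034, 21.4 ± 4.88 CPM in HT-29 and 7.28 ± 0.990 CPM in HCT116 (SD, n = 3 each), and had 1 count in the 3 CCD841CoN libraries together. Its ratio of means was 339 (counting interval 60.8 to 13372), and LS1034 was the lowest cancer line, below each of the others in the pairwise tests, although its call against HCT116 ended under 8 of 22 alternatives (adjusted p 0.0519 to 0.103). EFNA3 averaged 18.1 ± 7.75 CPM in LoVo and 12.8 ± 7.58 CPM in HCT116, 3.92 ± 0.879 CPM in LS1034 and 2.33 ± 1.09 CPM in HT-29, against 0.282 ± 0.193 CPM in CCD841CoN. LoVo and HCT116 were each higher than LS1034 and than HT-29, the call of LS1034 against HCT116 ending under 3 of 22 alternatives, without LS1034 replicate 2 or 3 or HCT116 replicate 3 (adjusted p 0.0631 to 0.166).

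EFNA4 was called higher in LS1034 alone, at 18.4 ± 1.28 CPM against 4.41 ± 1.97 CPM in CCD841CoN (1.78 ± 0.44, edgeR adjusted p = 0.00297). EFNA3 and EFNA4 are neighbours on chromosome 1, and in the annotation 47.9% and 14.96% of their exon bases are shared with a read-through transcript on the same strand, so their counts are uncertain. EFNB1, the X-linked B-type ephrin, averaged 77.1 ± 31.9 CPM in LoVo, 132 ± 35.3 CPM in LS1034, 261 ± 44.8 CPM in HT-29 and 23.7 ± 9.35 CPM in HCT116, against 28.9 ± 1.52 CPM in CCD841CoN. HT-29 was called higher than LoVo and HCT116, and HCT116 lower than each other cancer line. The higher call of HT-29 over LS1034 ended under 15 of 22 alternatives (adjusted p 0.0196 to 0.175). The call of EFNB1 in the mean contrast (1.34 ± 0.29, adjusted p = 0.000951) ended with a replicate block among the cancer lines, where the change fell to 0.88 (adjusted p = 0.00116). In LoVo its call ended under 5 of 23 alternatives (adjusted p 0.0189 to 0.11), which were DESeq2, its size factors, the replicate block among the cancer lines (0.61), a fit of the compared groups alone and the omission of LoVo replicate 3 (0.66).

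EFNA5, a ligand of EPHA and EPHB2 receptors, moved in opposite directions. It stood at 4.36, 3.46 and 3.11 CPM in LoVo, 0.146, 0.666 and 0 CPM in LS1034, 34.1, 25.8 and 17.5 CPM in HT-29 and 1.18, 0.777 and 0.925 CPM in HCT116, against 3.25, 3.43 and 3.92 CPM in CCD841CoN. The HT-29 libraries lay above all others, the LS1034 and HCT116 libraries below all CCD841CoN libraries, and the LoVo libraries overlapped CCD841CoN. The log2 fold changes against CCD841CoN were -3.90 ± 0.68 in LS1034 (edgeR adjusted p = 0.000153), 2.62 ± 0.59 in HT-29 (adjusted p = 0.00155) and -2.16 ± 0.60 in HCT116 (adjusted p = 0.00673). LoVo differed from CCD841CoN by -0.27 ± 0.57 (adjusted p = 0.709). EFNB3 stayed under 3 CPM in every library, with 113 counts in LoVo, 1 in LS1034 and none in HT-29 and HCT116, against 20 in CCD841CoN. It was called lower in LS1034, HT-29 and HCT116, in LS1034 not with the 0.1% mixtures as control (adjusted p = 0.0605), and not called in LoVo.

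Among the Eph receptors, EPHA1, EPHA10, EPHB3 and EPHB6 were called higher in the mean contrast and EPHA4, EPHA5 and EPHB2 lower, of 10 tested (24.8% of all genes were higher and 22.3% lower). EPHA1, the founding member of the family, whose window also holds the E-box word, stood at 57.5, 159 and 108 CPM in LoVo, 7.77, 15.4 and 8.44 CPM in LS1034, 67.9, 74.2 and 56.8 CPM in HT-29 and 13.5, 17.5 and 17.6 CPM in HCT116, against 0.609, 0.600 and 0.413 CPM in CCD841CoN. Every cancer library lay above every CCD841CoN library, and the LoVo and HT-29 libraries lay above those of LS1034 and HCT116. The mean log2 fold change was 5.59 ± 0.40 (edgeR, adjusted p = 5.05e-09), a 93.02-fold difference of means. LoVo exceeded LS1034 by 3.29 ± 0.35 (adjusted p = 4.21e-06) and HCT116 by 2.70 ± 0.34 (adjusted p = 2.35e-05). EPHA10, which lacks kinase activity, reached only 4.13 to 8.01 CPM as a mean in the cancer lines but had no count in CCD841CoN, at least a 92.9-fold difference against 3 counts over that line's libraries. EPHB6, the other receptor without kinase activity, averaged 21.3 ± 13.8 CPM in LoVo, 38.1 ± 36.5 CPM in LS1034, 19.4 ± 4.42 CPM in HT-29 and 11.7 ± 0.429 CPM in HCT116, against 1.01 ± 0.621 CPM in CCD841CoN.

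Of the crypt receptors named above, EPHB2 was called lower in LoVo, HT-29 and HCT116, and EPHB3 higher in LS1034 and HT-29. EPHB2 stood at 29.6, 46.1 and 23.4 CPM in LoVo, 75.03, 176 and 61.4 CPM in LS1034, 2.54, 4.65 and 4.26 CPM in HT-29 and 16.6, 19.3 and 20.7 CPM in HCT116, against 60.4, 50.9 and 55.5 CPM in CCD841CoN. The HT-29 libraries were the lowest, those of HCT116 and LoVo also lay below CCD841CoN, and those of LS1034 lay above it. The log2 fold change was -4.12 ± 0.40 in HT-29 (edgeR adjusted p = 3.81e-07), -1.87 ± 0.36 in HCT116 (adjusted p = 0.000427) and 0.61 ± 0.35 in LS1034, where it was not called (adjusted p = 0.156). The call in LoVo (-1.10 ± 0.35, adjusted p = 0.0152) ended with plain library size (-0.75, adjusted p = 0.0984), without LoVo replicate 1 (adjusted p = 0.0503) and without LoVo replicate 3 (adjusted p = 0.0678).

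EPHB3 stood at 5.21, 15.1 and 8.61 CPM in LoVo, 97.4, 232 and 58.1 CPM in LS1034, 59.5, 83.2 and 60.6 CPM in HT-29 and 5.60, 7.09 and 5.92 CPM in HCT116, against 6.98, 8.49 and 4.33 CPM in CCD841CoN. LS1034 and HT-29 were high in all 3 libraries, while LoVo and HCT116 overlapped CCD841CoN. The change was 3.98 ± 0.47 in LS1034 (edgeR adjusted p = 3.36e-06) and 3.10 ± 0.46 in HT-29 (adjusted p = 3.33e-05), against 0.18 ± 0.43 in LoVo (adjusted p = 0.751) and -0.41 ± 0.43 in HCT116 (adjusted p = 0.438). LS1034 and HT-29 did not pass the test against each other (0.88 ± 0.42, adjusted p = 0.143). HT-29 thus combined the lowest EPHB2 of the 5 lines with an EPHB3 mean next below that of LS1034. Replicate 2 of LS1034 was the highest library of that line for EPHB2, EPHB3 and EPHB6.

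EPHB1 was found almost only in LS1034. It stood at 0.134, 0.121 and 0 CPM in LoVo, 32.1, 19.4 and 37.5 CPM in LS1034, 0, 0.0802 and 0.0926 CPM in HT-29 and 0.0303, 0.534 and 0 CPM in HCT116, against 0.568, 0.514 and 0.619 CPM in CCD841CoN. The 3 LS1034 libraries lay far above the rest, and the LoVo and HT-29 libraries lay below CCD841CoN with 8 and 3 counts in all. LS1034 was 52.3-fold above CCD841CoN (5.44 ± 0.88, edgeR adjusted p = 7.75e-05) and exceeded LoVo, HT-29 and HCT116 by 7.45 or more on the log2 scale. The lower calls of EPHB1 rest on few counts. That in LoVo (-2.75 ± 0.98, adjusted p = 0.0254) ended without any 1 of the 3 LoVo libraries or without CCD841CoN replicate 1 or 3 (adjusted p up to 0.0592), and that in HT-29 (adjusted p = 0.0121) without HT-29 replicate 1 (adjusted p = 0.0522).

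EPHB4, the usual partner of EFNB2 in blood vessels, was called in HT-29 alone, at 193, 214 and 142 CPM against 23.9, 25.6 and 20.3 CPM in CCD841CoN (2.72 ± 0.33, edgeR adjusted p = 4.76e-06). HT-29 was above each other cancer line, while LS1034, at 20.3 ± 9.92 CPM, was the lowest, its call against HCT116 ending without LS1034 replicate 3 or HCT116 replicate 2 (adjusted p 0.0518 to 0.0798). EPHA2, a receptor much studied in carcinomas, was called in no line against CCD841CoN, averaging 127 ± 36.3 CPM in LoVo, 107 ± 50.3 CPM in LS1034, 194 ± 117 CPM in HT-29 and 85.6 ± 59.4 CPM in HCT116, against 93.7 ± 12.9 CPM in CCD841CoN. Its mean change was 0.09 ± 0.36 (adjusted p = 0.858). EPHA4 and EPHA5 stayed under 10 CPM as a mean in every line, EPHA4 being called lower in HT-29 alone at 0.252 ± 0.0448 CPM against 6.26 ± 2.75 CPM in CCD841CoN. EPHA5 averaged 0.107 CPM over the 12 cancer libraries and 5.05 ± 1.55 CPM in CCD841CoN.

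**Figure D2:**
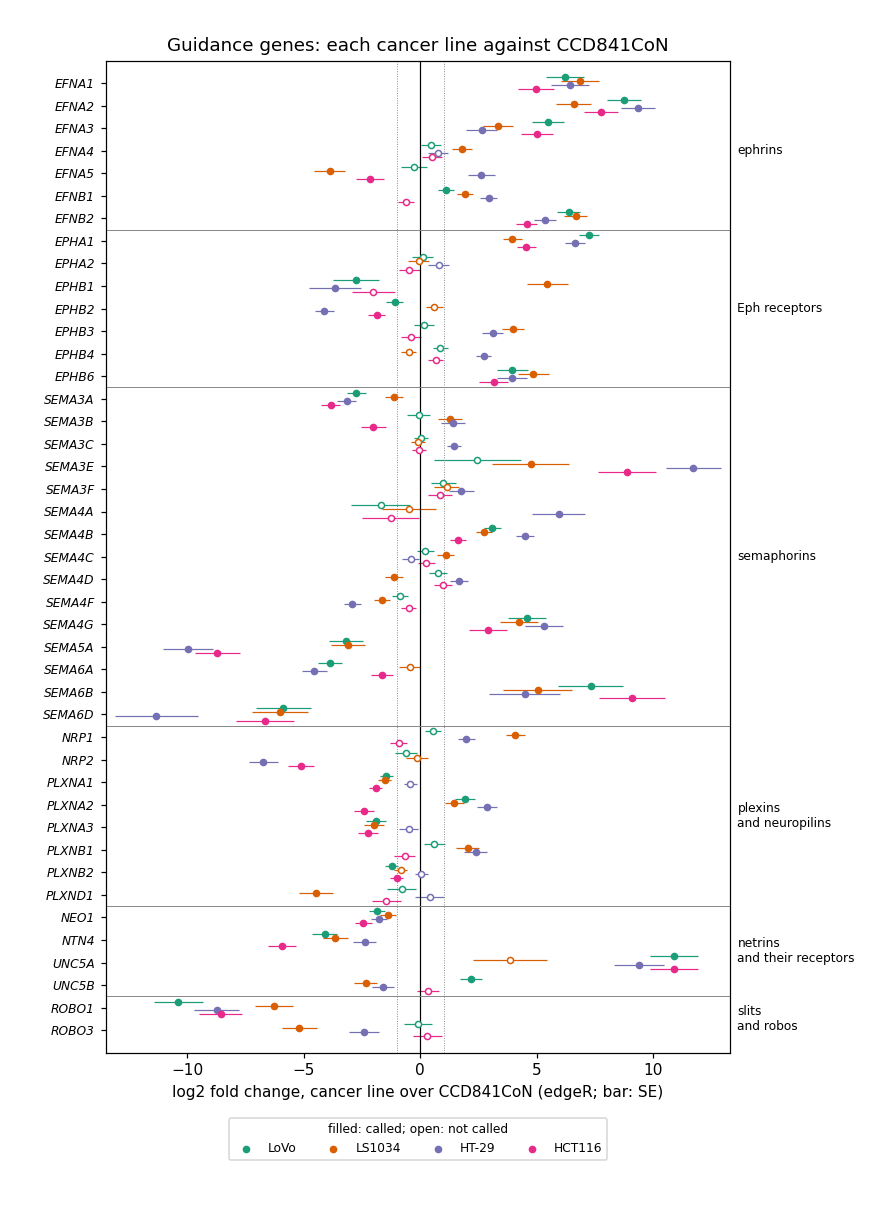
Log2 fold change of each cancer line over CCD841CoN (x axis) for the 43 members at 10 CPM or more in a line (y axis, by family), with bars for the SE. Filled points were called and open points were not, dotted lines mark a change of 1, and values of genes without a count in 1 of the groups are fitted and set no bound.

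Semaphorins, the largest family of guidance ligands, were split. Of 20 tested, 6 were called higher in the mean contrast (SEMA3E, SEMA3F, SEMA3G, SEMA4B, SEMA4G and SEMA6B) and 7 lower (SEMA3A, SEMA3D, SEMA4F, SEMA5A, SEMA6A, SEMA6C and SEMA6D), beside 24.8% and 22.3% of all genes. SEMA4B, a membrane-bound class 4 member, stood at 74.1, 96.8 and 154 CPM in LoVo, 76.5, 80.7 and 85.6 CPM in LS1034, 317, 291 and 214 CPM in HT-29 and 27.04, 33.002 and 55.7 CPM in HCT116, against 7.995, 13.7 and 8.88 CPM in CCD841CoN. Every cancer library lay above every CCD841CoN library, with HT-29 on top and HCT116 the lowest of the cancer lines by mean. The mean log2 fold change was 2.98 ± 0.32 (edgeR, adjusted p = 6.76e-07), and HT-29 exceeded HCT116 by 2.88 ± 0.35 (adjusted p = 1.21e-05). SEMA4G averaged 2.85 (HCT116) to 14.7 CPM (HT-29) in the cancer lines against 0.309 ± 0.216 CPM in CCD841CoN. In the annotation 22.99% of its exon bases overlap genes on the opposite strand, MRPL43 among them.

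SEMA3A, the secreted ligand that collapses growth cones through neuropilin-1, was lower in the cancer lines. It stood at 30.7, 49.4 and 42.3 CPM in LoVo, 151, 111 and 97.4 CPM in LS1034, 38.7, 30.9 and 17.04 CPM in HT-29 and 31.2, 12.1 and 11.3 CPM in HCT116, against 199, 215 and 234 CPM in CCD841CoN. All cancer libraries lay below CCD841CoN, with LS1034 the nearest to it. The mean log2 fold change was -2.72 ± 0.26 (edgeR, adjusted p = 1.44e-07). In LS1034 the SEMA3A call (-1.13 ± 0.38, adjusted p = 0.0189) ended with plain library size (-0.85, adjusted p = 0.065), with a replicate block among the cancer lines (-0.74, adjusted p = 0.0721), without LS1034 replicate 3 (adjusted p = 0.0586) and without CCD841CoN replicate 3 (adjusted p = 0.0526).

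SEMA5A, a transmembrane ligand with thrombospondin repeats, stood at 14.4, 28.8 and 4.15 CPM in LoVo, 24.1, 17.2 and 6.87 CPM in LS1034, 0, 0.241 and 0.185 CPM in HT-29 and 0.0303, 0.874 and 0.185 CPM in HCT116, against 124, 111 and 101 CPM in CCD841CoN. LoVo and LS1034 kept a part of the CCD841CoN level, while HT-29 and HCT116 held 8 and 23 counts in all. The fold below CCD841CoN was 7.09 in LoVo, 6.98 in LS1034, 788 in HT-29 and 308 in HCT116 (edgeR adjusted p = 0.00148, 0.00189, 1.07e-06 and 2.04e-06). LoVo exceeded HT-29 (6.79 ± 0.99, adjusted p = 9.64e-05) and HCT116 (5.51 ± 0.87, adjusted p = 0.000214). SEMA6D averaged 0.158 CPM over the cancer libraries, with no count in HT-29, against 12.2 ± 0.937 CPM in CCD841CoN. SEMA6A averaged 1.16 ± 0.314 CPM in LoVo, 12.2 ± 4.58 CPM in LS1034, 0.700 ± 0.0454 CPM in HT-29 and 5.51 ± 2.36 CPM in HCT116, against 13.8 ± 5.28 CPM in CCD841CoN, and was called lower in all but LS1034. In HCT116 that call ended without CCD841CoN replicate 1 (adjusted p = 0.0525).

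SEMA3E and SEMA4A were highest in HT-29. SEMA3E, which can bind plexin-D1 without a neuropilin and whose window holds a TCF/LEF word, stood at 0.0267, 0.0402 and 0 CPM in LoVo, 0.117, 0.291 and 0 CPM in LS1034, 23.9, 21.1 and 11.6 CPM in HT-29 and 3.36, 2.23 and 2.45 CPM in HCT116, with no count in CCD841CoN. HT-29 was at least 289-fold and HCT116 at least 41.1-fold above the 3 counts taken as the floor over CCD841CoN. HT-29 exceeded HCT116 by 2.85 ± 0.60 (edgeR adjusted p = 0.00207). A call in LS1034 rests on 11 counts (adjusted p = 0.0261) and ended without LS1034 replicate 2 (adjusted p = 0.0885) or without CCD841CoN replicate 1 (adjusted p = 0.0964) or 2 (adjusted p = 0.0534). SEMA4A, a ligand of B-type plexins, stood at 23.5, 23.9 and 9.07 CPM in HT-29, against 0.528, 0.0857 and 0 CPM in CCD841CoN (5.93 ± 1.15, adjusted p = 0.000443). Its mean was 0.0939 to 0.223 CPM in the other cancer lines.

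SEMA6B, a transmembrane ligand of A-type plexins, was highest in HCT116, at 13.99, 21.6 and 20.3 CPM, with 3.69, 6.64 and 6.30 CPM in LoVo, 1.49, 0.791 and 0.970 CPM in LS1034 and 0.0696, 2.05 and 0 CPM in HT-29, against 1 count in CCD841CoN. HCT116 exceeded LS1034 and HT-29 but was not called against LoVo (-1.78 ± 0.84 for LoVo over HCT116, edgeR adjusted p = 0.14). The HT-29 call against CCD841CoN rests on replicate 2 and ended without it (0.63, adjusted p = 0.747), and also without CCD841CoN replicate 1 (adjusted p = 0.106) or 2 (adjusted p = 0.0673), with a replicate block among the cancer lines (adjusted p = 0.08) and with the 0.1% mixtures as control (adjusted p = 0.0867). That in LS1034 ended without CCD841CoN replicate 1 (adjusted p = 0.0572). SEMA4F, a neuronal class 4 member, averaged 3.54 ± 1.26 CPM in HT-29 and 8.80 ± 0.359 CPM in LS1034, both called lower, against 22.4 ± 3.04 CPM in CCD841CoN.

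SEMA3B and SEMA4D went both ways. SEMA3B, a secreted ligand often silenced in tumours, stood at 26.1, 15.6 and 38.6 CPM in LoVo, 70.2, 18.2 and 105 CPM in LS1034, 73.4, 76.4 and 63.1 CPM in HT-29 and 4.48, 6.36 and 10.3 CPM in HCT116, against 17.2, 26.1 and 25.4 CPM in CCD841CoN. HCT116 lay below CCD841CoN in every library and HT-29 above it, while LoVo and LS1034 overlapped CCD841CoN, LS1034 through its replicate 2. HCT116 was lower (-2.01 ± 0.53, edgeR adjusted p = 0.00451). The higher calls held under only some alternatives. That in LS1034 (1.25 ± 0.51, adjusted p = 0.0494) ended under 17 of 23 alternatives (adjusted p 0.0502 to 0.306), the lowest change being 0.65 without LS1034 replicate 3. That in HT-29 (1.39 ± 0.51, adjusted p = 0.0327) ended under 8 of 23 (adjusted p 0.0507 to 0.111), among them the omission of any 1 HT-29 or CCD841CoN library. SEMA4D, a plexin-B1 ligand known from lymphocytes, averaged 26.02 ± 7.56 CPM in LoVo, 6.66 ± 4.57 CPM in LS1034, 45.2 ± 11.7 CPM in HT-29 and 29.2 ± 2.51 CPM in HCT116, against 12.1 ± 0.953 CPM in CCD841CoN. It was called higher in HT-29 (1.64 ± 0.39, adjusted p = 0.00223) and lower in LS1034 (-1.14 ± 0.39, adjusted p = 0.0213), where the call ended under 5 of 23 alternatives (adjusted p 0.0282 to 0.0871, changes of -1.07 to -0.85). These were plain library size, a replicate block among the cancer lines and the omission of LS1034 replicate 2 or 3 or CCD841CoN replicate 1.

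SEMA3F, the NRP2 ligand, was called higher in the mean contrast (1.18 ± 0.45, edgeR adjusted p = 0.034) and in HT-29, where the call ended without HT-29 replicate 1 or 2 or CCD841CoN replicate 1 (adjusted p 0.0512 to 0.0623). The mean call of SEMA3F ended under 8 of 22 alternatives (adjusted p 0.0635 to 0.162), 7 of them the omission of LoVo replicate 2, LS1034 replicate 1, HT-29 replicate 1 or 2, HCT116 replicate 2 or CCD841CoN replicate 1 or 2. SEMA3C was called in HT-29 alone, at 166 ± 2.34 CPM against 51.1 ± 2.30 CPM in CCD841CoN. The low semaphorins were SEMA3D, SEMA3G, SEMA5B, SEMA6C and SEMA7A, none above 5 CPM as a mean in any line. SEMA3G, an endothelial ligand in the adult, had no count in CCD841CoN and 0.704 (HT-29) to 3.29 CPM (HCT116) in the cancer lines. SEMA5B and SEMA7A were called in no line, and the mean call of SEMA6C ended without CCD841CoN replicate 2 (adjusted p = 0.0564).

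**Figure D3:**
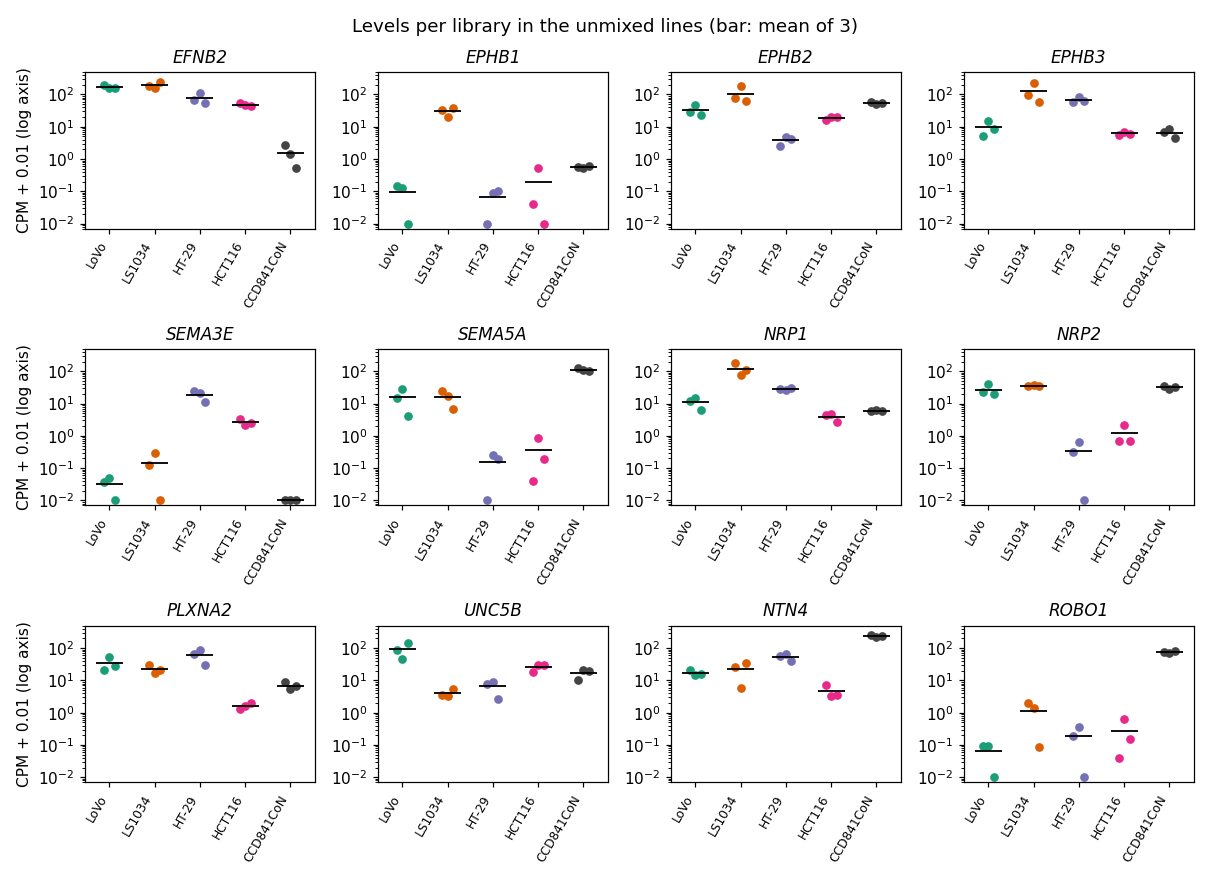
CPM plus 0.01 on a log axis for 12 members in each unmixed library, with the cancer lines left of CCD841CoN and a bar at the mean of 3 libraries. EFNB2 is high in all cancer lines and ROBO1 and NTN4 in CCD841CoN, EPHB1 is high in LS1034, SEMA3E in HT-29, UNC5B in LoVo, and PLXNA2 is lowest in HCT116.

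The semaphorin receptors are plexins and neuropilins. Of 11 tested, 2 were called higher in the mean contrast (NRP1 and PLXNB1) and 5 lower (NRP2, PLXNA1, PLXNA3, PLXNB3 and PLXND1), beside 24.8% and 22.3% of all genes. Line by line, LoVo had 1 higher and 4 lower (26.4% and 21.6% of all genes), and LS1034 3 and 4 (25.7% and 21.4%). HT-29 had 3 and 2 (24.7% and 20.9%), and HCT116 0 and 6 (25.4% and 21.2%). NRP1 was called higher in LS1034 and HT-29, and NRP2 lower in HT-29 and HCT116. NRP1, the co-receptor of SEMA3A and of VEGF, stood at 11.97, 14.96 and 6.30 CPM in LoVo, 182, 75.996 and 107 CPM in LS1034, 27.3, 25.7 and 30.6 CPM in HT-29 and 4.51, 4.71 and 2.59 CPM in HCT116, against 5.72, 6.43 and 5.88 CPM in CCD841CoN. LS1034 was the highest line and HT-29 next, LoVo replicate 3 lay within the CCD841CoN range, and HCT116 lay below it. The log2 fold change was 4.07 ± 0.40 in LS1034 (edgeR adjusted p = 4.23e-07) and 1.97 ± 0.37 in HT-29 (adjusted p = 0.000342). NRP2, the co-receptor of SEMA3F, stood at 22.8, 39.1 and 19.7 CPM in LoVo, 35.1, 37.1 and 34.2 CPM in LS1034, 0.313, 0.642 and 0 CPM in HT-29 and 0.666, 2.18 and 0.694 CPM in HCT116, against 35.4, 28.5 and 32.9 CPM in CCD841CoN. The LoVo and LS1034 libraries overlapped those of CCD841CoN, while the HT-29 and HCT116 libraries were at 2.18 CPM or less. The change was -6.73 ± 0.63 in HT-29 (adjusted p = 2.57e-07) and -5.13 ± 0.57 in HCT116 (adjusted p = 1.9e-06).

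PLXNA2, a receptor of class 6 semaphorins, stood at 20.98, 52.7 and 27.4 CPM in LoVo, 30.04, 17.5 and 21.3 CPM in LS1034, 67.4, 87.2 and 29.4 CPM in HT-29 and 1.33, 1.55 and 1.94 CPM in HCT116, against 8.89, 5.23 and 6.61 CPM in CCD841CoN. HCT116 lay below CCD841CoN in every library and the other 3 cancer lines above it. The log2 fold changes were 1.91 ± 0.41 in LoVo (edgeR adjusted p = 0.000942), 1.45 ± 0.41 in LS1034 (adjusted p = 0.0068), 2.87 ± 0.42 in HT-29 (adjusted p = 3.2e-05) and -2.42 ± 0.43 in HCT116 (adjusted p = 0.000211). PLXND1, the SEMA3E receptor, averaged 26.4 ± 14.5 CPM in LoVo, 1.95 ± 2.12 CPM in LS1034, 56.2 ± 24.1 CPM in HT-29 and 16.4 ± 6.99 CPM in HCT116, against 35.6 ± 6.30 CPM in CCD841CoN, and was called in LS1034 alone (-4.46 ± 0.72, adjusted p = 8.07e-05). HT-29 held the highest mean of both SEMA3E and PLXND1 among the 5 lines. For PLXND1, however, its libraries overlapped those of LoVo and CCD841CoN, and it was called against neither. The PLXND1 call of HT-29 over HCT116 ended under 5 of 22 alternatives (adjusted p 0.0512 to 0.136).

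The B-type plexins bind class 4 semaphorins. PLXNB2 averaged 143 ± 40.9 CPM in LoVo, 178 ± 19.9 CPM in LS1034, 326 ± 95.6 CPM in HT-29 and 164 ± 65.1 CPM in HCT116, against 264 ± 4.68 CPM in CCD841CoN. Its lower calls in LoVo (-1.23 ± 0.28, edgeR adjusted p = 0.00152) and HCT116 (-1.02 ± 0.28, adjusted p = 0.00587) ended with plain library size (-0.88 and -0.69), and that in HCT116 also without HCT116 replicate 1 (-0.82). PLXNB1 averaged 21.6 ± 7.15 CPM in LoVo, 55.8 ± 28.2 CPM in LS1034, 69.5 ± 36.7 CPM in HT-29 and 8.77 ± 4.50 CPM in HCT116, against 11.03 ± 3.48 CPM in CCD841CoN. It was called in LS1034 (2.03 ± 0.48, adjusted p = 0.00202) and HT-29 (2.38 ± 0.48, adjusted p = 0.000636), while its call in the mean contrast (1.08 ± 0.39, adjusted p = 0.0265) ended under 10 of 22 alternatives (adjusted p 0.025 to 0.117), 8 of them the omission of 1 library (LoVo replicate 2, LS1034 replicate 1 or 2, HT-29 replicate 1 or 2, HCT116 replicate 2, or CCD841CoN replicate 2 or 3).

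PLXNA1 and PLXNA3, receptors of class 3 semaphorins with neuropilins, were lower in LoVo, LS1034 and HCT116 but not called in HT-29. PLXNA1 averaged 60.3 ± 19.3 CPM in LoVo, 54.8 ± 9.31 CPM in LS1034, 114 ± 8.005 CPM in HT-29 and 43.2 ± 18.4 CPM in HCT116, against 129.8 ± 2.77 CPM in CCD841CoN. PLXNA3 averaged 15.4 ± 6.05 CPM in LoVo, 13.7 ± 3.55 CPM in LS1034, 38.04 ± 19.6 CPM in HT-29 and 11.96 ± 6.08 CPM in HCT116, against 44.997 ± 6.37 CPM in CCD841CoN. PLXNA1, PLXNA3, PLXNB3 and PLXNB2 were each called higher in HT-29 than in LoVo and HCT116. Against LoVo the call of PLXNA1 ended under 8 of 22 alternatives (adjusted p 0.0113 to 0.0605) and that of PLXNA3 under 4 of 22 (adjusted p 0.0685 to 0.112), and against HCT116 that of PLXNB2 under 4 of 22 (adjusted p 0.0188 to 0.0541). PLXNB3, at 7.74 CPM in HT-29 against 8.13 CPM in CCD841CoN and under 1 CPM in the other cancer lines, shares 19.6% of its exon bases with SRPK3 on the same strand and is uncertain.

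Of 6 tested netrins and netrin receptors, NEO1, NTN4 and UNC5C were called lower in the mean contrast (22.3% of all genes) and UNC5A higher (24.8% of all genes). NTN4, a netrin of basement membranes that binds laminin, stood at 20.98, 15.2 and 15.2 CPM in LoVo, 26.1, 5.62 and 35.6 CPM in LS1034, 57.01, 64.8 and 40.2 CPM in HT-29 and 7.11, 3.40 and 3.56 CPM in HCT116, against 260.2, 214 and 236 CPM in CCD841CoN. Every cancer library lay below every CCD841CoN library, HCT116 being the lowest line and HT-29 the highest of the cancer lines. The mean log2 fold change was -4.02 ± 0.33 (edgeR, adjusted p = 2.3e-08), and HT-29 exceeded HCT116 by 3.55 ± 0.53 (adjusted p = 9.96e-05). NEO1, which encodes the netrin and repulsive guidance molecule receptor neogenin, averaged 42.5 ± 16.003 CPM in LoVo, 56.4 ± 19.8 CPM in LS1034, 42.5 ± 14.3 CPM in HT-29 and 27.3 ± 5.99 CPM in HCT116, against 120.1 ± 24.9 CPM in CCD841CoN, a mean change of -1.86 ± 0.24 (adjusted p = 4.78e-06). DCC, the classical netrin-1 receptor, had 8 counts in LoVo, 12 in LS1034, 5 in HT-29, 9 in HCT116 and none in CCD841CoN.

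The UNC5 receptors differed among the cancer lines. UNC5A stood at 8.87, 15.6 and 9.57 CPM in LoVo, 0.146, 0.0416 and 0 CPM in LS1034, 2.82, 4.17 and 4.26 CPM in HT-29 and 9.29, 13.7 and 10.3 CPM in HCT116, with no count in CCD841CoN. LoVo and HCT116 were high in all libraries, HT-29 lower and LS1034 near the floor with 6 counts. The difference from 3 counts over CCD841CoN was at least 174-fold in LoVo, 57.5-fold in HT-29 and 169.9-fold in HCT116. UNC5B, a p53-induced dependence receptor, stood at 90.2, 44.5 and 145 CPM in LoVo, 3.47, 3.29 and 5.23 CPM in LS1034, 7.69, 9.18 and 2.69 CPM in HT-29 and 17.9, 30.2 and 30.7 CPM in HCT116, against 10.3, 20.8 and 19.2 CPM in CCD841CoN. LoVo lay above and LS1034 and HT-29 below every CCD841CoN library, and HCT116 overlapped CCD841CoN. The log2 fold change was 2.18 ± 0.49 in LoVo (edgeR adjusted p = 0.0013), -2.34 ± 0.50 in LS1034 (adjusted p = 0.000947), -1.60 ± 0.48 in HT-29 (adjusted p = 0.0109) and 0.34 ± 0.47 in HCT116 (adjusted p = 0.567). UNC5C averaged 0.189 CPM over the cancer libraries and 6.10 ± 3.19 CPM in CCD841CoN, and was called lower in every line. NTN1, which encodes the secreted netrin-1, was at 1.89 CPM in LoVo and 2.27 CPM in HCT116 and had 1 count each in LS1034 and HT-29, against 7 counts in CCD841CoN. The higher call of NTN1 in LoVo (adjusted p = 0.0183) ended without LoVo replicate 2 (adjusted p = 0.117) or CCD841CoN replicate 1 (adjusted p = 0.0761) or 2 (adjusted p = 0.0717), and that in HCT116 (adjusted p = 0.0113) without CCD841CoN replicate 1 (adjusted p = 0.0542).

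Of 6 tested slits and robos none was called higher in the mean contrast and 5 were called lower (ROBO1, ROBO3, ROBO4, SLIT2 and SLIT3), beside 24.8% and 22.3% of all genes. Line by line the lower calls were 3 in LoVo (21.6% of all genes), 4 in LS1034 (21.4%), 4 in HT-29 (20.9%) and 2 in HCT116 (21.2%). In LoVo ROBO2 was called higher (26.4% of all genes). ROBO1, a receptor of SLIT2 whose window holds the E-box word too, stood at 0.0802, 0.0805 and 0 CPM in LoVo, 1.93, 1.37 and 0.0746 CPM in LS1034, 0.174, 0.361 and 0 CPM in HT-29 and 0.0303, 0.631 and 0.139 CPM in HCT116, against 73.8, 70.2 and 82.7 CPM in CCD841CoN. It was abundant in CCD841CoN and at 1.93 CPM or less in every cancer library, LS1034 replicates 1 and 2 being the highest of them. The mean log2 fold change was -8.49 ± 0.51 (edgeR, adjusted p = 6.21e-10), and the fold below CCD841CoN was 67.1 in LS1034 and 1411 in LoVo. ROBO3 averaged 9.19 ± 5.65 CPM in LoVo, 0.268 ± 0.103 CPM in LS1034, 1.75 ± 1.40 CPM in HT-29 and 12.1 ± 4.78 CPM in HCT116, against 7.98 ± 3.27 CPM in CCD841CoN, and was called lower in LS1034 (-5.18 ± 0.77, adjusted p = 3.38e-05) and HT-29 (-2.41 ± 0.65, adjusted p = 0.00539). ROBO2 reached 7.32 ± 4.35 CPM in LoVo and 5.98 ± 2.33 CPM in LS1034, against 1.12 ± 0.724 CPM in CCD841CoN. It was called higher in LoVo alone (2.45 ± 0.90, adjusted p = 0.03), which was lost on leaving out LoVo replicate 1 (adjusted p = 0.154) or CCD841CoN replicate 1 (adjusted p = 0.113) or 3 (adjusted p = 0.0811). The ligands SLIT2 and SLIT3 stayed under 3 CPM as a mean in every line. SLIT3 was lower by -4.23 ± 0.83 in the mean contrast (adjusted p = 0.000375), while its call in single lines ended without LoVo replicate 1 or 3, LS1034 replicate 1, HT-29 replicate 1 or 2, HCT116 replicate 1 or 3, or, in LoVo, HT-29 and HCT116, CCD841CoN replicate 1 (adjusted p up to 0.0788). The call of SLIT2 in the mean contrast ended without CCD841CoN replicate 1 (adjusted p = 0.396) and with a replicate block among the cancer lines (adjusted p = 0.051). That of ROBO4 ended without CCD841CoN replicate 2 (adjusted p = 0.0722) or 3 (adjusted p = 0.103) and by DESeq2 (adjusted p = 0.118).

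Per kilobase of exon, the members at the top of their line were EFNB2 (33.4 CPM per kilobase) in LoVo, EFNB1 (39.8) and EFNB2 (39.6) in LS1034, EFNB1 (78.8) and SEMA4B (69.8) in HT-29, PLXNB2 (25.6) and EPHA2 (21.6) in HCT116, and NTN4 (64.6) and PLXNB2 (41.3) in CCD841CoN. The lengths come from a later annotation than the counts, so these levels are approximate.

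Among the 4 cancer lines alone, 47 of 61 tested members differed (edgeR F test over the lines, adjusted p under 0.05 and a range of line means of at least 1 on the log2 scale), with 53.6% of all genes tested called by the same rule. By pairs, first-named line over the other, 23 members were called in LoVo against LS1034 (26.0% of all genes), 31 in LoVo against HT-29 (27.2%), 19 in LoVo against HCT116 (22.1%), 30 in LS1034 against HT-29 (22.6%), 35 in LS1034 against HCT116 (32.9%) and 37 in HT-29 against HCT116 (30.6%). LoVo and HCT116 were thus the pair with the fewest calls, 16 of the 19 being higher in LoVo (11.9% of all genes) and 3 lower (10.2%). NRP1 and EFNA5 were called in all 6 pairs and no other member was. How many of all genes tested were called in all 6 was not counted, so this is a description only. The NRP1 call in LoVo against HCT116 ended with those groups alone in the fit (adjusted p = 0.0642). The EFNA5 call in LS1034 against HCT116 ended under 18 of 22 alternatives (adjusted p 0.0502 to 0.187) and that in LoVo against HCT116 under 4 of 22 (adjusted p 0.0528 to 0.0888).

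Downstream of the receptors, 54 effector genes (adaptors, exchange factors, kinases and cytoskeletal proteins) were all tested and 27 were called in the mean contrast, 10 higher and 17 lower (47.1% of all genes were called, 24.8% higher and 22.3% lower), with a median log2 fold change of -0.37 against 0.22 over all genes tested. NGEF, the exchange factor ephexin that acts downstream of Eph receptors, averaged 20.2 ± 11.2 CPM over the 12 cancer libraries (SD across lines and libraries), against 2 counts in CCD841CoN. DAPK1, a death kinase of UNC5 signalling, averaged 49.1 ± 55.04 CPM against 3 counts. The exchange factor VAV3 averaged 16.1 CPM against 2 counts, and the kinase SRC 65.6 CPM against 16.1 CPM in CCD841CoN (log2 fold change 1.52 ± 0.27, edgeR adjusted p = 0.000162). DPYSL3, a collapsin response mediator of semaphorin signalling, was lower in the mean contrast (-3.93 ± 0.32, adjusted p = 2.01e-08) but ranged widely, at 2.11 CPM in LoVo, 141 CPM in LS1034, 0.351 CPM in HT-29 and 20.7 CPM in HCT116, against 82.3 CPM in CCD841CoN. Lower too were FARP1, an exchange factor tied to plexin and semaphorin signalling (56.1 CPM in the cancer lines against 406 CPM in CCD841CoN), RRAS, a small GTPase acted on by plexins (44.9 against 230.1 CPM), and MICAL1, an actin oxidase downstream of plexins (16.3 against 59.7 CPM).

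Of 43 co-receptors and other ligands of these receptors in the table, 36 were tested and 22 called in the mean contrast, 5 higher and 17 lower (beside the same 47.1%, 24.8% and 22.3% of all genes), with a median log2 fold change of -0.55 against 0.22 over all genes tested. MET, the HGF receptor that couples to plexin-B1, averaged 503 ± 210.2 CPM over the cancer libraries against 22.04 ± 2.58 CPM in CCD841CoN (4.14 ± 0.35, edgeR adjusted p = 4.3e-08), while HGF averaged 0.180 CPM against 218 CPM (-10.69 ± 0.42, adjusted p = 4.92e-12). The heparan sulfate carriers SDC1 and SDC2 moved apart. SDC1 averaged 188 CPM against 48.2 CPM, and SDC2 0.143 CPM against 245 CPM. LINGO1 averaged 13.05 CPM with no count in CCD841CoN. VEGFC, a neuropilin-2 ligand, averaged 0.197 CPM against 75.8 CPM, and CHL1, an adhesion molecule that associates with neuropilin-1, 0.213 CPM against 135 CPM.

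In the mixtures the 4 lines served as replicates of a percentage. At 50% against 0.1% cancer RNA 30 of 55 tested members were called (edgeR, adjusted p under 0.05 alone, line as a term; 54.2% of all genes tested), 13 higher (30.1% of all genes) and 17 lower (24.1%). At 10% against 0.1% 7 were called (7.39% of all genes), 6 higher (6.21% of all genes) and 1 lower (1.18%). The 6 were EFNA1, EFNA2, EFNB2, EPHA1, EPHA10 and SEMA4B, and the lower one was NTN4. Each of the 7 is among the members called in that direction in every unmixed cancer line. The mixtures hold RNA of the same lines and the test averages over them, so this overlap adds no support to the unmixed calls. Without the LoVo, the LS1034 or the HT-29 mixtures 4 were called, and scaling by plain library size left 6 called, all higher. At 1% against 0.1% none was called by edgeR or by DESeq2 (0.939% of all genes by edgeR). Of the 55 tested members 3, EFNA1, EFNA2 and EPHA5, had an unadjusted edgeR p under 0.05. The share of all genes under that unadjusted limit was not counted, so no change at 1% is read from these 3.

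EFNA1 was called at the lowest adjusted p of the members at 10%. From 0.1 to 50% it stood at 0.680, 1.30, 2.94 and 26.9 CPM in the LoVo mixtures, at 0.145, 1.28, 10.6 and 39.2 CPM in those of LS1034, at 0.504, 1.09, 5.42 and 23.8 CPM in those of HT-29 and at 0.229, 0.577, 2.72 and 14.1 CPM in those of HCT116. The log2 fold change at 10% against 0.1% was 3.55 ± 0.44 (edgeR, adjusted p = 0.000114). EFNB2 stood at 1.95, 5.12, 16.95 and 72.6 CPM in the LoVo mixtures and at 4.20, 9.35, 27.1 and 138 CPM in those of LS1034, a change of 1.85 ± 0.37 over the 4 lines at 10% (adjusted p = 0.00673). NTN4, which comes mainly from CCD841CoN, stood at 254, 254, 242 and 147 CPM in the LoVo mixtures and changed by -0.28 ± 0.07 at 10% (adjusted p = 0.0228) and -1.14 ± 0.07 at 50% (adjusted p = 1.73e-08). At 10% the calls of EFNB2, EPHA10, NTN4 and SEMA4B each ended under 3 or 4 of the alternatives, the omission of 1 line's mixtures among them, and that of EPHA1 under 1.

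**Figure D4:**
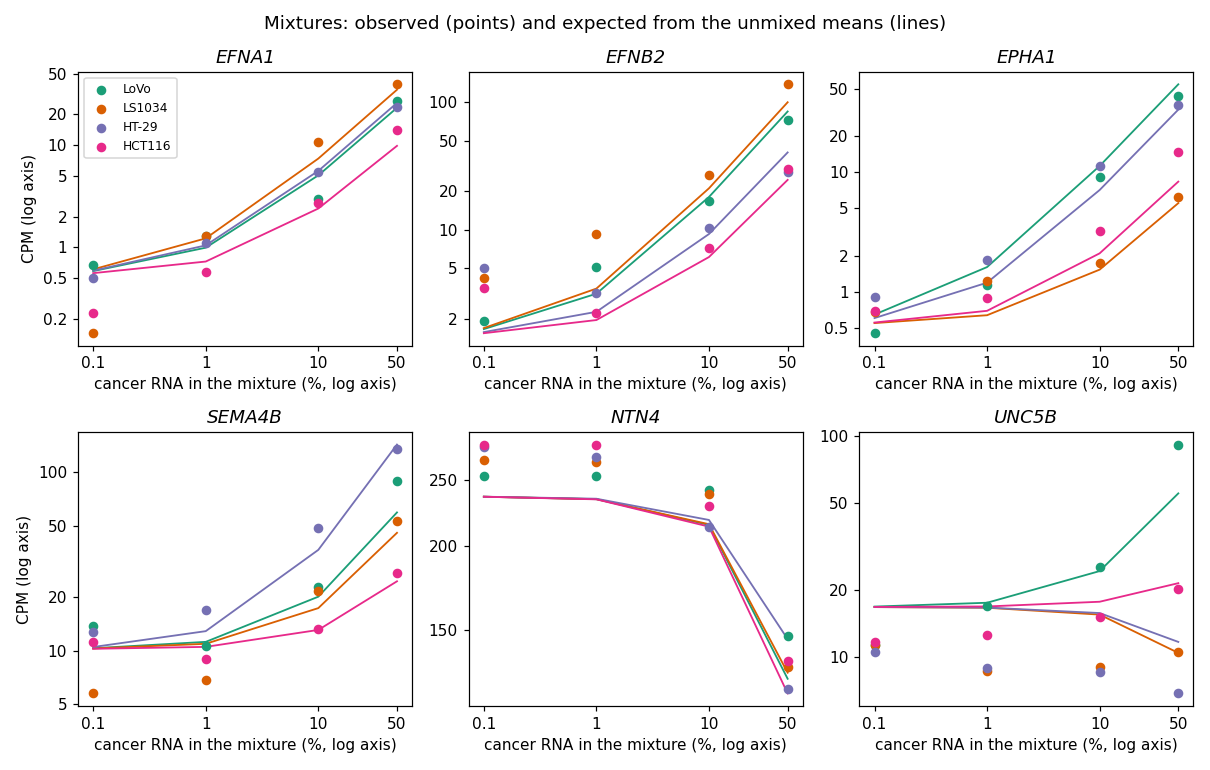
CPM (log axis) of 6 members in the 16 mixtures against the percentage of cancer RNA (log axis). Points are the observed values and lines the values expected from the unmixed means of each line and CCD841CoN. EFNA1, EFNB2, EPHA1 and SEMA4B climb with the cancer share, NTN4 falls at 50%, and UNC5B climbs in the LoVo mixtures, where the 50% point is above its line.

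Observed levels lay near those expected from the stated percentages, but at 0.1 and 1% nearly all of the expected level comes from CCD841CoN. The medians given for 0.1 and 1% therefore hardly depend on the cancer share. With the share estimated from genes outside the family they were also 0.986 and 0.967. Over members expected at 10 CPM or more, the median ratio of observed to expected was 0.986 at 0.1% (92 values), 0.967 at 1% (92 values), 0.979 at 10% (99 values) and 0.951 at 50% (108 values), and 100 of 108 values at 50% lay within 1.5-fold. At 50% the median was 0.848 in the HT-29 mixture, with 26 of 30 values within 1.5-fold, and 0.978 to 1.008 in the others. With CPM scaled by the trimmed mean of M values the pooled median at 50% was 0.890, with 93 of 108 values within 1.5-fold. The cancer share estimated from genes outside the family ran above the stated one in the HT-29 mixtures (15.3% at 10 and 57.3% at 50) and the LS1034 mixtures (13.6 and 56.1%). UNC5B was observed at 91.7 CPM in the 50% LoVo mixture against 55.02 CPM expected. EPHB3 and EPHB6 reached 0.481 and 0.434 of the expected level in the 50% LS1034 mixture, and LS1034 replicate 2, one of the 3 unmixed libraries behind the expected values, was the highest of its line for both. With 1 library per mixture there is no test of these ratios.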

How the data were processed

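The authors deposited 1 table of raw counts, not normalized, for 17113 protein-coding genes in 31 libraries. Per the labels' protocols the libraries were stranded and depleted of ribosomal RNA. Per the submitters' processing notes, STAR was the aligner, featureCounts the counter and hg19 the genome build. Their versions and the strand setting of the counting are not given in the sources used here.

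All genes were tested together in R 4.3.3 by the quasi-likelihood method of edgeR 4.0.16 (which builds on limma 3.58.1), with TMM scaling and filterByExpr applied to the counts. One fit took the 15 unmixed libraries by line, another the 16 mixtures by percentage with the line as a term. P-values were adjusted by the Benjamini-Hochberg method. An unmixed call needed an adjusted p under 0.05 and a log2 change of at least 1, a mixture call the adjusted p alone. SE is the log2 fold change over the root of its F statistic. CPM used the raw library total, computed in Python 3.11.15, and fold values are ratios of mean CPM. Where a group had no count, the fold used 3 counts over that group as a floor. Where it had 1 to 3 counts, a 95% Poisson interval is given. Both cover counting error only. The 9688765 to 56741879 counts per library set the precision.

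The members and lists were chosen with earlier results of these data known. The text gives values for members with a mean of at least 10 CPM in a line, at most 12 of them semaphorins (those with the largest change or range), and others by counts, ranges or a single line. Replicate numbers paired the cancer lines: deviations from the line means correlated at 0.175 to 0.544 in the 18 same-number pairs between cancer lines, against -0.0408 to 0.0217 in the 12 pairs with CCD841CoN. The block was therefore tried among the cancer lines and over all 5 lines. Other alternatives were DESeq2 1.42.0 and its size factors, plain library size, no filter, fits of the compared groups, the 0.1% mixtures as control, and the omission of each library or line. Expected mixture levels from CCD841CoN replicate 1 only were added after seeing the data. The statistics were also run on simulated counts in which a small share of the genes was raised by known amounts and the lines were otherwise alike. The lines here differ far more, so that run does not measure how reliable the calls above are. Exon lengths and overlaps came from a GRCh38 annotation, with symbols as the link.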

Additional observations from a re-analysis of the deposited data

Results flagged for a closer look

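The members below were called higher in 1 cancer line and lower in another against the same CCD841CoN libraries. The pairs of lines were picked for those opposite calls, which fix a difference of at least 2 on the log2 scale between them. The values, the log2 difference of the first line over the other ± SE from the edgeR fit, are therefore given as a description, with no test, and add no support to the calls.

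EFNA5 differed in LS1034 against HT-29 (-6.52 ± 0.73) and in HT-29 against HCT116 (4.78 ± 0.66), with 34.1, 25.8 and 17.5 CPM in HT-29. EPHB1 differed in LoVo against LS1034 (-8.19 ± 1.02) and in LS1034 against HT-29 (9.10 ± 1.11), LoVo and HT-29 holding 8 and 3 counts. UNC5B was higher in LoVo than in LS1034 (4.52 ± 0.54) and HT-29 (3.78 ± 0.52).

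PLXNA2 exceeded its HCT116 level in LoVo (4.34 ± 0.46), LS1034 (3.87 ± 0.45) and HT-29 (5.30 ± 0.48). SEMA3B did so in LS1034 (3.26 ± 0.55) and HT-29 (3.40 ± 0.55), although its higher calls against CCD841CoN in these 2 lines held under only some alternatives. SEMA4D was lower in LS1034 than in HT-29 (-2.78 ± 0.41).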

How the results depend on the processing

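Over 9815 checks of a member's call under an alternative, 9392 kept the call, 423 lost it and 0 changed direction. Each call enters once per alternative, and many alternatives omit a library of a line outside the comparison. The share of calls lost under at least 1 alternative is therefore larger than the share of checks lost. With 1 unmixed library left out, the members called numbered 40 to 43 in the mean contrast, 30 to 36 in LoVo, 38 to 45 in LS1034, 41 to 47 in HT-29 and 31 to 39 in HCT116. Of the counts of members called, 1 moved by over 1.5 times: at 10% against 0.1% cancer RNA 7 were called with all lines and 4 to 6 with the mixtures of 1 line left out (4 without LoVo, LS1034 or HT-29). The replicate block over all 5 lines ended 3 of 423 calls, and the block among the cancer lines 8 of 423. The mean contrast had 43 members called with the first block and 41 with the second, against 42 without. DESeq2 ended 6 of 460 calls and plain library size 16 of 460. Not every lost call is named beside its result. Fits of the compared groups alone were not run for the mean contrast, which already holds all 5 lines. The cause of the lost calls was not tested. Depth limits the members under about 1 CPM, where a line's call rests on a few counts, and 9 members could not be tested. Expected mixture levels from CCD841CoN replicate 1 only, chosen after seeing the data, gave a median ratio of 0.940 at 50%, against 0.951.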

Other observations

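The 9 members too low to test summed to more CPM in replicate 2 than in the other replicates of every cancer line: 1.33 CPM in LoVo replicate 2, 1.67 CPM in LS1034 replicate 2, 0.521 CPM in HT-29 replicate 2 and 2.52 CPM in HCT116 replicate 2. The other 8 cancer libraries were between 0 and 0.759 CPM, and the 3 CCD841CoN libraries between 0.244 and 0.413 CPM. These sums rest on 52 counts or fewer per library.

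The 4 mixtures with 0.1% cancer RNA are almost wholly CCD841CoN RNA. Over 23 members at 10 CPM or more, the median absolute log2 difference from the mean of these mixtures was 0.0668 for CCD841CoN replicate 1, 0.136 for replicate 2 and 0.258 for replicate 3. SEMA6A was at 17.8 to 21.8 CPM in these mixtures, against 19.9, 10.7 and 10.8 CPM in the 3 CCD841CoN libraries.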
